A study of Mus musculus with 12 samples.

Results

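The small leucine-rich proteoglycans are secreted matrix proteins, and 9 of their genes were described here: Dcn (decorin), Bgn (biglycan), Aspn (asporin), Lum (lumican), Fmod (fibromodulin), Prelp, Omd (osteomodulin), Ogn (osteoglycin) and Podn (podocan). They were measured in 6 spontaneous lung tumours and 6 normal control lungs, all from untreated B6C3F1 mice (a hybrid mouse used in long-term bioassays) aged 2 years, with 1 Affymetrix array per sample. RNA came from homogenised frozen tissue, so every value is a mix of all cells in the piece, and fewer cells of a type cannot be told apart from less RNA per cell. The labels do not give the histology of the tumours, nor say that each sample is a different animal, so the tests reflect variation among these 12 samples, which may be technical. The genes were found as the probe sets whose only platform symbol is that of the gene, 20 of the 45037 tested, and each gene took the value of its probe set with the highest mean signal over the 12 arrays. These are 9 of 18193 genes measured.

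Each of these proteins has a curved core of leucine-rich repeats. The cores lie along collagen fibrils and limit how fibrils grow in width and fuse, and several also bind growth factors and cell receptors. Many carry a glycosaminoglycan, a long sulphated sugar chain: chondroitin or dermatan sulphate on decorin and biglycan, keratan sulphate on lumican, fibromodulin and osteomodulin. In lung they are made mostly by fibroblasts and other stromal cells, around vessels and airways and in the alveolar wall.

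Of the 9 genes, 4 fell in tumours and 0 rose. Ogn fell most, 30.3-fold, Prelp fell 7.46-fold, Aspn 3.17-fold and Dcn 2.00-fold, and for each of these every tumour was below every normal lung. Omd, Lum, Bgn and Podn had lower tumour means without passing the test, and Fmod had a higher tumour mean without passing it. Over all genes 17.5% were called lower and 12.2% higher, and 11.8% had no overlap with tumours lower and 6.77% with tumours higher. Ogn and Prelp fell by over 2 log2 units, as 3.7% of all genes did. The median difference was -1.001 for the 9 genes and -0.08 over all 18193. Differences are tumour minus normal lung of log2(signal + 16), with their standard error and 6 arrays per group. A fold change is the same difference on a linear scale, and the offset makes it smaller for dim genes. A gene was called where its limma p-value, adjusted by Benjamini-Hochberg over all 45037 probe sets, was under 0.05. Because the family was chosen from earlier results of this tumour and normal lung comparison, its number of calls is a description.

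Several of the genes are neighbours in the genome. In the RefSeq table (assembly GRCm38.p6) Ecm2, Aspn, Omd and Ogn follow each other on chromosome 13, all within the span of Cenpp, a centromere protein gene. Prelp and Fmod are adjacent on chromosome 1 beside Optc, Dcn and Lum on chromosome 10 beside Kera and Epyc, Bgn is on chromosome X and Podn on chromosome 4. RefSeq promoter windows were found for 7 of the 9 genes. The 250 bases before the start are shown for the chromosome 13 and chromosome 1 neighbours, because some adjacent genes moved by different amounts. Capitals mark any match, on either strand, to 1 of 5 searched motifs. These were the TATA box, searched as TATAAA, whose matches may overlap each other. The CCAAT box was searched by those letters. The GC box bound by Sp factors was searched as GGGCGG. The AP-1 site was searched as TGANTCA, where N is any base. The TEAD site was searched as GGAATG.
Ogn, chr13:49607765-49608014, plus strand: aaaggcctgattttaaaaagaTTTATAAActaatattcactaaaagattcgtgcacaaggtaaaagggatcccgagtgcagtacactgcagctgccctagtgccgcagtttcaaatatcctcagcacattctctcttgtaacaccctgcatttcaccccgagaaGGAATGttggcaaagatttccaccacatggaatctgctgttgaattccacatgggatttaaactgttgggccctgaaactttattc
Omd, chr13:49582212-49582461, plus strand: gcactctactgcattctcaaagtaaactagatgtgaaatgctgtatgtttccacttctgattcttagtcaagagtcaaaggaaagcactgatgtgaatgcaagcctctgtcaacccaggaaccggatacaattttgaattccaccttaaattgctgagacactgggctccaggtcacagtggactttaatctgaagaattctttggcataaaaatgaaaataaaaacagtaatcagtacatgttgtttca
Aspn, chr13:49544193-49544442, plus strand: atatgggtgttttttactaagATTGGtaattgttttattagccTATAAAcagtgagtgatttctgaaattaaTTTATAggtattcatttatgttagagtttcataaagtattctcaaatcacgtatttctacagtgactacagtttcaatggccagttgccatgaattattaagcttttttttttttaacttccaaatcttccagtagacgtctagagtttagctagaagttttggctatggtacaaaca
Prelp, chr1:133921402-133921651, minus strand: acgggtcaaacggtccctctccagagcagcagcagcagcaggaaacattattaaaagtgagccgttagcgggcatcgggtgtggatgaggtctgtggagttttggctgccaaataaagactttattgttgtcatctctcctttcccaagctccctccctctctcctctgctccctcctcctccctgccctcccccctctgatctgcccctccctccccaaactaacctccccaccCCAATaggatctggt
Fmod, chr1:134037004-134037253, plus strand: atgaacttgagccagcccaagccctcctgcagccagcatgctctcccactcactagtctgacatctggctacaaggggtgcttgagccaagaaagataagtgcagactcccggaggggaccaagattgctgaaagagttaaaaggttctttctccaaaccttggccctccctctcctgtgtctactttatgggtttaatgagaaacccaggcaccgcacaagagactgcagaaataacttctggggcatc

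The matches were as follows. The Ogn window held 2 overlapping TATAAA matches, beginning at positions -229 and -227 from the start, and a TEAD match at -86. Aspn held 2 TATA box matches at -207 and -178 and a CCAAT match at -229, and Prelp held a CCAAT match at -15. The Omd and Fmod windows held 0 matches to the 5 motifs. Among all 32851 windows of this length 12.4% held the TATA box, 33.8% the CCAAT box, 32.7% the GC box, 6.75% the AP-1 site and 12.6% the TEAD site. The chromosome 13 windows were low in G and C, at 30.0% for Aspn, 38.4% for Omd and 42.0% for Ogn, against a median of 52.4%. Prelp was at 55.6% and Fmod at 51.2%. A match is a description of the letters and was not tested as a binding site.

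Ogn encodes osteoglycin, also called mimecan, a keratan sulphate protein of the class that also holds epiphycan and opticin. In normal lungs its signal was 9047 at lowest, 11046 at the median and 11911 at highest. In tumours it was 41.6 at lowest, 343 at the median and 2048 at highest. All 6 tumours were far below the normal range, and tumour 4, the highest of them, was still below the lowest normal lung. The difference was -4.92 ± 0.58 (adjusted p = 1.81e-05). A second Ogn probe set, which the choice of probe set passed over with a mean of 5588 against 5613, gave -5.30 ± 0.69 (adjusted p = 4.67e-05). Tumours differed among themselves more than normal lungs did, with a log2 SD of 1.70 against 0.16.

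Decorin and biglycan are the close relatives that carry chondroitin or dermatan sulphate, and asporin is their relative with a run of aspartate residues in place of a chain. Dcn, which binds collagen and holds growth factors of the TGF-beta family, was at 2704, 3257 and 4076 in normal lungs (lowest, median, highest). In tumours Dcn was at 825, 1615 and 2411, with tumour 3 lowest and tumours 2 and 4 highest. No tumour reached the normal range, and the difference was -1.001 ± 0.22 (adjusted p = 0.00329). The call was lost with the signal of Eif2s3y, a Y-linked gene, as a covariate (-0.71, adjusted p = 0.106, over 25 alternatives 0.00151 to 0.106). The other Dcn probe set had a mean signal of 30.1, under the median of 149 of all values, and did not pass (-0.67 ± 0.38).

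Bgn, which in addition to binding collagen is released as a signal to Toll-like receptors, overlapped between the groups. Its signal in normal lungs was 13461 at lowest, 15936 at the median and 17892 at highest. In tumours the same 3 values were 5072, 11206 and 19169.8. Tumours 1, 2, 3 and 5 were below every normal lung, tumour 4 was within the normal range and tumour 6 above it. The difference was -0.68 ± 0.27 (95% interval -1.25 to -0.10, adjusted p = 0.0850), and the 2 other Bgn probe sets gave -0.84 ± 0.31 and -0.74 ± 0.31, with adjusted p of 0.0631 and 0.0964. Bgn passed as lower under quantile normalization (adjusted p = 0.0158), with array weights (0.0288) and without tumour 6 (0.0159); over 25 alternatives the adjusted p ran from 0.0158 to 0.939.

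Aspn, which competes with decorin for a site on collagen and also binds TGF-beta, was at 289, 514 and 712 in normal lungs (lowest, median, highest). Tumours lay at 86.6, 166 and 189.9. All tumours were below all normal lungs, and the tumour values were as close together as the normal ones, with a log2 SD of 0.44 against 0.48. The difference was -1.66 ± 0.25 (adjusted p = 1.60e-04). Its other probe set also fell, by 1.38 on the log2 scale (adjusted p = 0.0105), with overlap between the groups.

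Lumican, fibromodulin, Prelp and osteomodulin form the keratan sulphate class. Prelp, whose basic end binds heparan sulphate and which links basement membranes to collagen, was at 3528, 5028 and 6948 in normal lungs. Its tumour values were 326, 585 and 1592, and tumour 4 was again the highest. The groups did not overlap, with a difference of -2.90 ± 0.30 (adjusted p = 5.44e-06). Its other probe set gave -3.18 ± 0.31 (adjusted p = 2.87e-06), also without overlap.

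Fmod, which binds collagen close to the lumican site and steers cross-linking, was the exception among the 9 in its direction. Its signal was 144, 221 and 253 in normal lungs and 217, 319 and 2079 in tumours (lowest, median, highest). Tumours 1, 4 and 5 were above every normal lung, at 392, 673 and 2079, and tumours 2, 3 and 6 were within the normal range. The difference of 1.03 ± 0.43 did not pass (95% interval 0.10 to 1.95, adjusted p = 0.104), and tumours had a log2 SD of 1.22 against 0.26 in normal lungs. All 6 Fmod probe sets had positive differences, from 0.07 to 1.03, and none passed. Of these 5 are of the type whose probes may also match other transcripts (suffix _x_at), including the brightest one, and the only one without that suffix gave 0.53 ± 0.33 (adjusted p = 0.296). Fmod passed as higher with array weights (adjusted p = 0.0431) and after median centring (adjusted p = 0.0453), and over 25 alternatives its adjusted p ran from 0.0431 to 0.296.

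Lum, which spaces collagen fibrils, was split among tumours. Normal lungs had 222, 322 and 449, and tumours 95.1, 138 and 397 (lowest, median, highest). Tumours 4 and 6 were within the normal range, at 397 and 323, and the other 4 tumours below it. The difference was -0.78 ± 0.33 (95% interval -1.47 to -0.08, adjusted p = 0.101). It passed without tumour 4 (-1.005, adjusted p = 0.0224) and without tumour 6 (-0.95, adjusted p = 0.0438); over 25 alternatives the adjusted p ran from 0.0224 to 0.844.

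Omd, an acidic protein best known from bone that binds mineral and collagen, had the largest log2 SD of the 9 among tumours, at 1.84 against 1.70 for Ogn, whose range from lowest to highest was wider (5.16 against 5.08 log2 units). Its signal was 133, 202 and 228 in normal lungs and 2.10, 26.8 and 598 in tumours. Tumours 1 to 5 were all below the lowest normal lung and tumour 6 was above the highest. The difference was -1.81 ± 0.65 (95% interval -3.19 to -0.43, adjusted p = 0.0546). Without tumour 6 it was -2.49 and passed (adjusted p = 1.50e-04). Omd also passed with array weights (0.00928), dropping dim probe sets (0.0407), the replicate block (adjusted p = 0.0440) and an offset of 1 (0.0482). Over 25 alternatives the adjusted p ran from 1.50e-04 to 0.922. Tumour 6 also had the highest summed signal of the fibril collagen list, at 35700.3 against 17309 to 24988 in normal lungs. It was also highest for the activated fibroblast markers, at 29064 against 17275 to 25307. Both lists hold Col1a1 and Col3a1. Among tumours, tumour 6 was highest as well for the sums of mesothelium markers (12758), adipocyte markers (635), fibril assembly genes (42116.5) and other proteoglycans (10956). Its high rank was thus not particular to collagens or activated fibroblast markers. Tumour 2, with Omd at 39.2, was likewise above every normal lung in the collagen sum, at 28151.5. The part of these lists in the Omd value was not tested. In tumours 1 to 5 Omd was below the median of 149 of all values, which limits its precision there.

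Podn, the most distant member, which also binds collagen, was at 242, 357 and 409.9 in normal lungs and 202, 244 and 331 in tumours. Tumours 3, 4 and 5 were below the lowest normal lung and the other tumours overlapped the normal range. The difference was -0.38 ± 0.18 (95% interval -0.76 to -0.002, adjusted p = 0.142), and it did not pass under any of 25 alternatives.

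**Figure D1:**
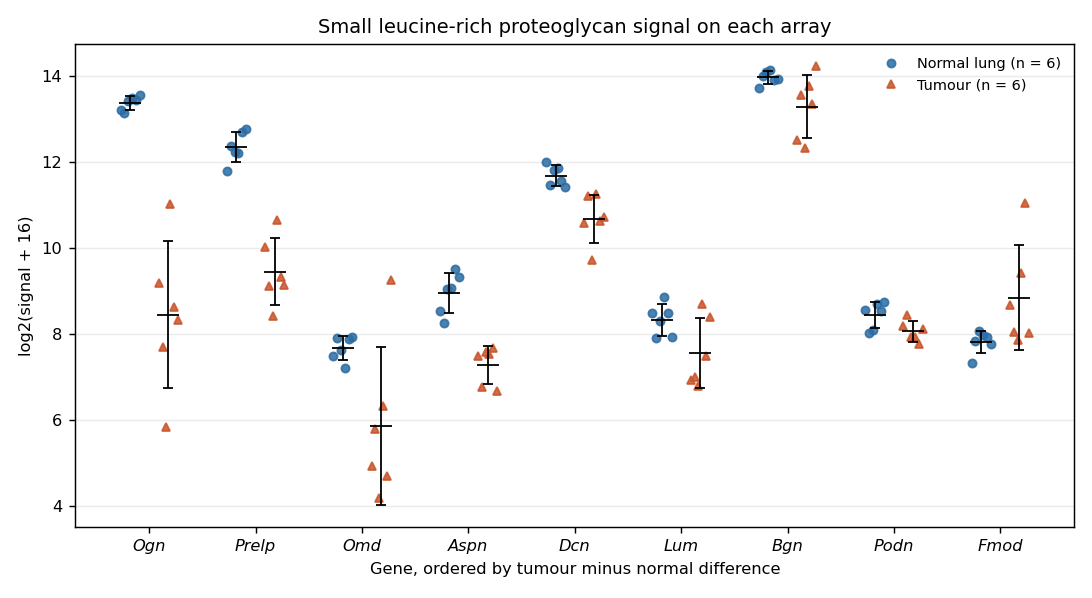
Signal of the 9 genes on each array as log2(signal + 16), circles for 6 normal lungs and triangles for 6 tumours, with the group mean as a dash and 1 SD as the bar. For Ogn, Prelp, Aspn and Dcn all triangles are below all circles; in Omd 1 triangle, tumour 6, is above every circle.

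**Figure D2:**
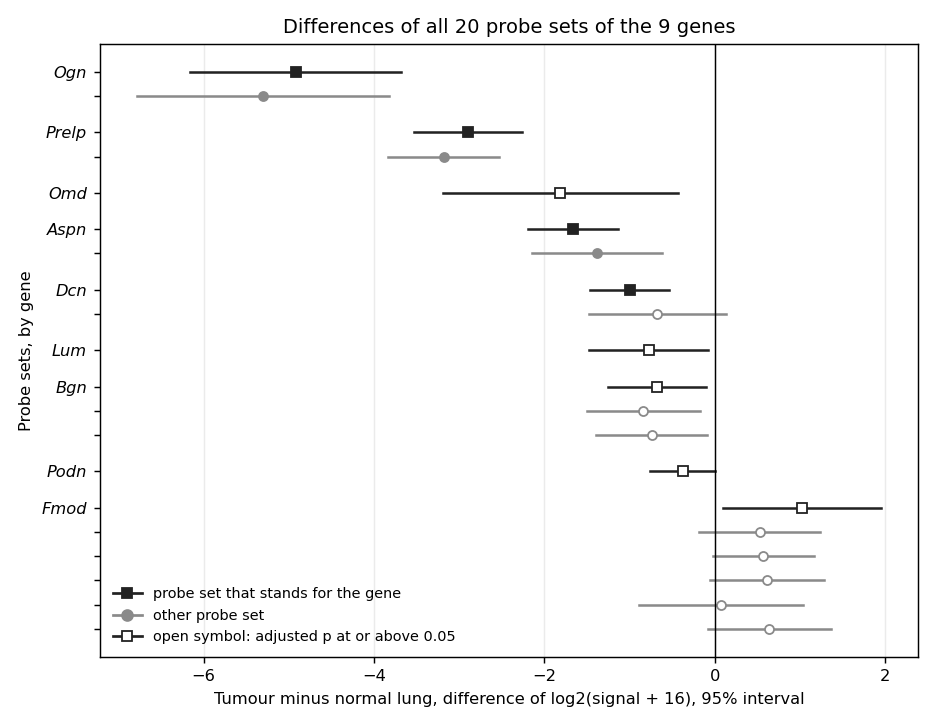
Tumour minus normal difference of log2(signal + 16) with its 95% interval for all 20 probe sets, squares for the probe set that stands for a gene and circles for the others, filled where the adjusted p was under 0.05. The 7 filled symbols are all to the left of 0 and belong to Ogn, Prelp, Aspn and Dcn, and all 6 symbols of Fmod are to the right.

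Of the 11 probe sets that did not stand for a gene, 3 were lower and 0 higher, beside 13.9% of all probe sets called lower and 10.1% called higher. The 3 belong to Ogn, Prelp and Aspn. The brightest probe set had a mean of 3043 against 1337 for the next for Prelp, 2512 against 30.1 for Dcn and 324 against 220 for Aspn. For Bgn they were close, at 13520.0 against 12091. For Fmod the means were 427 and 281, but these probe sets were alike in normal lungs, at means of 212 and 205. They were furthest apart in tumour 5, at 2079 and 840, so the Fmod choice rested largely on that array.

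The 9 genes moved by unequal amounts. For each of the 36 pairs the within-array difference of log2 values was compared between the groups by a two-sided exact permutation test over all 924 splits of the 12 arrays, whose smallest possible p is 0.00216. After Benjamini-Hochberg adjustment over the 36 pairs, 21 passed. Ogn differed from all 8 others and so did Fmod, while Prelp differed from 7, all but Omd. Fmod was taken here from its brightest probe set, of the _x_at type, at 1.03. Its other probe sets, at 0.07 to 0.64, were not tried in the pairs, so the pairs with Fmod hold for that probe set alone. In the order of differences, Ogn and Prelp were 2.02 log2 units apart (exact permutation adjusted p = 0.00458) and Podn and Fmod 1.41 apart (exact permutation adjusted p = 0.0273). The 6 other neighbouring pairs, from Prelp down to Podn, were 0.10 to 1.09 apart and did not pass, with exact permutation adjusted p of 0.181 to 0.909. Some neighbours in the genome parted and others did not. Omd and Ogn differed by 3.11 log2 units and Prelp and Fmod by 3.93 (exact permutation adjusted p = 0.00458 for each). Aspn and Omd were 0.15 apart (exact permutation adjusted p = 0.909) and Dcn and Lum 0.22 apart (exact permutation adjusted p = 0.527).

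Tumours also varied in how far the whole group of 9 genes lay from normal lung. Tumour 3 was the lowest tumour for 7 of the 9 genes, and tumour 4 was the highest for 4, counts given without the share over all genes. Against the mean of normal lungs, the median over the 9 genes was -1.65 in tumour 3 and -0.33 in tumour 6, and in the other 4 tumours it was between -1.45 and -0.51. In 7 of the 9 genes the tumours had the larger spread, with a median log2 SD of 0.78 against 0.29 in normal lungs. Over all genes 69.4% had the larger spread in tumours, with medians of 0.44 and 0.28.

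**Figure D3:**
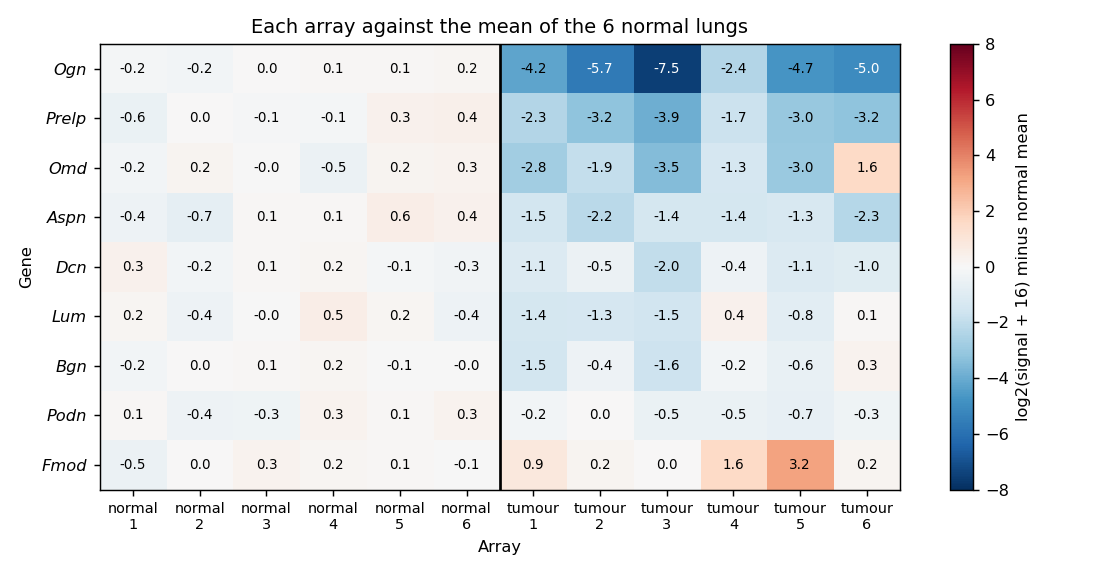
Each cell is the log2(signal + 16) of a gene (rows) on an array (columns) minus the mean of the 6 normal lungs, blue below and red above, with the value printed. Tumour columns are blue throughout for Ogn, Prelp, Aspn and Dcn; the reddest cell is Fmod in tumour 5, at 3.22.

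Sex-linked RNA divides the tumours, sets 4 of them apart from all normal lungs, and was followed as a label of the arrays. The lowest Xist signal among the normal lungs was 7877, and tumours 4 and 6 were above it. Eif2s3y was 27.4 or lower in all normal lungs and 12.6 or lower in tumours 4 and 6. Tumours 1, 2, 3 and 5 had Eif2s3y signals of 740.5 and higher and Xist signals of 109.3 or lower. In these 4, a difference from normal lung cannot be told apart from a difference of sex. In 6 of the 9 genes the highest tumour was tumour 4 or 6, and for Bgn, Lum and Omd both were above the other 4. The share over all genes was not counted, so this describes the 9 genes alone and is not a trait particular to them. With only tumours 4 and 6 against the 6 normal lungs, Ogn (-3.70), Prelp (-2.45), Aspn (-1.85) and Dcn (-0.69) were still lower, with adjusted p from 3.70e-04 to 0.0292. In that comparison Bgn was at 0.03, Lum at 0.22 and Omd at 0.12, with adjusted p of 0.939, 0.655 and 0.922. Bgn is X-linked; the part of sex in these values was not tested.

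Other members of the family were mostly dim. Of 7 further family genes measured, 2 fell, 0 rose and 5 were dimmer than the median of all values in both groups. Ecm2, the neighbour of Aspn whose protein shares the repeats, had a mean signal of 165 ± 31.3 in the normal group and 18.4 ± 20.9 in the tumour group (SD, n = 6) and fell by 2.55 ± 0.32 log2 units (adjusted p = 3.52e-05). Chad, chondroadherin, a cartilage protein that binds collagen and integrins, fell from 300.1 ± 109 to 45.5 ± 47.2 (-2.64 ± 0.44, adjusted p = 4.08e-04). Kera (-0.12), Epyc (-0.12), Optc (-0.43), Nyx (-0.34) and Chadl (0.41) did not pass. Cenpp, which spans the chromosome 13 cluster, rose (1.53 ± 0.38, adjusted p = 0.00745). It was dim, with means of 30.9 in normal lungs and 117 in tumours, under the median of 149 of all values. Nol8, next to Ogn on the other side, did not pass (0.23 ± 0.20).

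Enzymes that build the sugar chains were counted in 3 lists. Of 6 enzymes of the linker between chain and core, Pxylp1, a phosphatase that acts on linker xylose, rose (1.06 ± 0.15), and the other 5 did not pass. Of 16 chondroitin and dermatan sulphate enzymes 7 fell and 1 rose. The sulphotransferases Chst15 (-1.18 ± 0.16), Ust (-1.24 ± 0.20), Chst12 (-1.0002 ± 0.19) and Chst7 (-1.03 ± 0.23) had the smallest adjusted p. Of the paired enzymes that start the chain, Csgalnact1 fell (-1.85 ± 0.43, adjusted p = 0.00490) and Csgalnact2 rose (0.56 ± 0.13). The number that rose was 3 after median centring, 2 after quantile normalization and 0 without normal lungs 2 and 4. The dermatan epimerases were apart, Dsel falling (-0.84 ± 0.22) and Dse at 0.72 ± 0.29 without passing. Of 8 keratan sulphate enzymes 4 fell, with B4galt4 (-1.94 ± 0.20), Chst1 (-2.07 ± 0.29) and Chst2 (-1.15 ± 0.19), and B3gnt7, which extends the chain, rose (1.16 ± 0.17). List medians were 0.11 for the linker, -0.54 for chondroitin and dermatan sulphate and -0.75 for keratan sulphate.

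Collagens that these proteins bind were counted next. Of 14 fibril collagen genes 2 fell and 1 rose, with a median of -0.02. Col5a2, of the collagen that seeds thin fibrils, rose (1.13 ± 0.18), and Col6a3 (-0.74 ± 0.14) and Col6a2 (-0.93 ± 0.22), of beaded microfibrils, fell. Col1a1 (0.95 ± 0.34, adjusted p = 0.0590) and Col3a1 (0.65 ± 0.24, adjusted p = 0.0661) did not pass. The number that rose was 5 after median centring and 3 after quantile normalization. With only tumours 4 and 6, 3 rose and 0 fell. Of 16 genes of fibril assembly 9 fell and 2 rose: Pcolce2, an enhancer of procollagen cleavage (-5.05 ± 0.62), Fbln1 (-2.16 ± 0.28) and Loxl1 (-1.90 ± 0.27) were among those that fell, and Bmp1, the protease that trims procollagen and also the biglycan precursor, rose (1.66 ± 0.23).

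Receptors and growth factors reported to bind these proteins went both ways, 6 of 15 falling and 3 rising. Kdr (-3.26 ± 0.27), Igf1r (-1.29 ± 0.16) and Egfr (-1.81 ± 0.34) fell. Met (1.87 ± 0.23), a receptor that decorin binds, and Tgfbr1 (1.30 ± 0.15) rose, and median centring gave 5 rises. The receptors of free biglycan were Tlr4, which rose (0.76 ± 0.21), and Tlr2, at 0.43 ± 0.37 without passing. Proteases that cut the core proteins were 3 higher and 4 lower of 12. Mmp12 (4.28 ± 0.42) and Adamts4 (2.10 ± 0.29) rose, and Adamts5 (-1.55 ± 0.18) and Mmp2 (-1.21 ± 0.15) fell, with 2 falls when only tumours 4 and 6 were used. Of 7 lysosomal enzymes that break the chains down 4 rose, with Glb1 (1.14 ± 0.17), Gusb (0.75 ± 0.15) and Galns (0.93 ± 0.20), and 2 fell, Ids (-1.40 ± 0.22) and Idua (-0.44 ± 0.15, adjusted p = 0.0482). The number that fell was 1 after quantile normalization, after median centring, with the replicate block and without normal lungs 2 and 4.

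Other proteoglycans were counted by type. Of 14 heparan sulphate proteoglycans 3 rose and 4 fell, with Sdc1, the epithelial syndecan (2.71 ± 0.23), and Sdc4 (1.62 ± 0.16) higher and Tgfbr3 (-2.41 ± 0.29) and Sdc2 (-1.06 ± 0.14) lower; after median centring 2 fell. Of 8 large aggregating proteoglycans and their link proteins 0 were called; 6 were dim in both groups, and Vcan was at 1.21 ± 0.77. Of 9 others 3 fell, with Spock2 (-3.10 ± 0.33), Srgn (-1.51 ± 0.32) and Cspg4 (-0.76 ± 0.24).

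**Figure D4:**
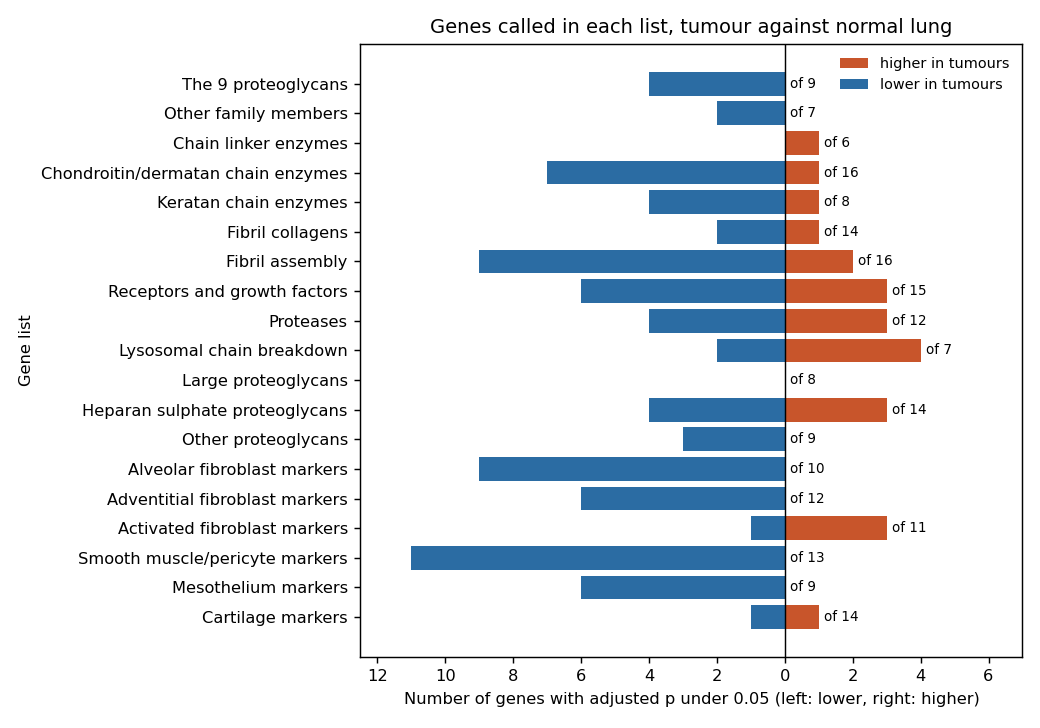
Number of genes called lower (bars to the left) or higher (bars to the right) in tumours for the 9 proteoglycans and for related and marker lists, with the number measured. The alveolar and adventitial fibroblast, smooth muscle and mesothelium marker lists have bars to the left alone; the activated fibroblast markers have 3 to the right and 1 to the left, and the fibril collagens 1 and 2.

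Markers of cells that could hold these transcripts were counted beside them. Alveolar fibroblast markers fell in 9 of 10 cases with 0 rising, among them Slc7a10 (-3.62 ± 0.23), Col13a1 (-3.80 ± 0.28), Itga8 (-3.81 ± 0.32) and Limch1 (-3.13 ± 0.27), and their summed signal was 91698 to 105720 in normal lungs and 8409.6 to 25004 in tumours. Tumour 3 had the lowest sum and tumour 4 the highest, as for Ogn and Prelp. The same held for the sum of cardiac muscle markers (448 and 3192). It also held for the mean log2 signal of adventitial fibroblast markers and of fibril assembly genes. Tumour 4 had the highest endothelial sum as well (16821), so this order was not particular to alveolar fibroblasts. Adventitial fibroblast markers fell in 6 of 12, with Dpep1 (-3.79 ± 0.49) and Dpt (-2.89 ± 0.43), and their sums overlapped, at 15117 to 18522 and 7845 to 22658. Activated fibroblast markers rose in 3 of 11, with Timp1 (1.74 ± 0.37), Adam12 (1.76 ± 0.41) and Cthrc1 (1.75 ± 0.57), and 1 fell, Acta2 (-1.65 ± 0.20), with sums of 17275 to 25307 and 14047 to 29064. After median centring 6 activated fibroblast markers rose. Smooth muscle and pericyte markers fell in 11 of 13, with Myh11 (-3.86 ± 0.22), and sums of 19837 to 33395 and 6415 to 11795. Mesothelium markers fell in 6 of 9, with Gpm6a (-4.42 ± 0.42); their sums were 4073 to 8962 and 329 to 12758, where Msln alone reached 12120 in a tumour. Cartilage, a further source of Chad and Prelp, had 12 of 14 markers dim in both groups, with Col2a1 at 21.4 and 9.32. The other 2 were Sox9, a transcription factor of cartilage and of some epithelia, which rose (3.61 ± 0.53, adjusted p = 1.30e-04), and Chad itself, which fell; the sums were 648 to 1177 and 756 to 1771. The part of cell makeup in the falls of the proteoglycans was not tested.

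The remaining marker lists, and the labels of the tissue, gave these values. All 12 endothelial markers fell (summed signal 78711 to 108034 and 6073 to 16821), 8 of 11 epithelial markers rose (73436 to 100257 and 97932 to 188565), 8 of 9 cardiac muscle markers fell (20665 to 33368 and 448 to 3192), and 3 of 5 adipocyte markers fell (542 to 1412 and 183 to 635); with only tumours 4 and 6, 0 adipocyte markers fell. Of 9 leukocyte markers 2 rose and 2 fell, and their sum was 136964 in normal lung 1 against 8384 to 29956 in the other normal lungs. Of surfactant genes, Sftpc averaged 47391 in normal lungs and 37379 in tumours without passing (-0.33 ± 0.18, adjusted p = 0.219), and Sftpb rose (0.49 ± 0.16, adjusted p = 0.0348). The median signal per array was 151 to 164 in normal lungs and 126 to 150 in tumours, and the number of arrays limits the precision. Alb, of liver, was at 13843 and 13722 in normal lungs 2 and 4 and at 4901 or less elsewhere, and leaving out those lungs again gave 4 genes lower and 0 higher.

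The genes most like each of the 9 in pattern were sought by the Pearson r of deviations from the group means over the 12 arrays, as a description. For Ogn they were Tcf21 (r = 0.97), Itga8 (0.96) and Mfap4 (0.96), and for Prelp Col13a1 (0.98), Fmo1 (0.97) and Pltp (0.97); all of these fell in tumours. Omd was most like Ddah1 (0.97), Ppip5k2 (0.95) and Efemp1 (0.94), of which Ppip5k2 rose and the others fell. Among the 9 themselves Ogn and Prelp were the most alike (0.90), then Bgn and Omd (0.81). Within groups, Ogn and Prelp were at 0.97 in tumours and 0.59 in normal lungs. Bgn and Omd were at 0.84 in tumours and -0.23 in normal lungs, so their likeness was in the tumours alone. For Bgn the likest gene was Gstm5 (0.96), for Fmod Gjb6 (0.96) and for Aspn Wls (0.94). For Podn it was Cds2 (0.92), for Dcn Traf3ip1 (0.91) and for Lum Mob1a (0.90). Of these likest genes Wls rose (1.19), Traf3ip1 fell (-1.61) and the others did not pass. All arrays share one scaling, and with 12 arrays and many genes a high r is easily reached.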

How the data were processed

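Tissue RNA was labelled with biotin and hybridised to 1 array per sample. The authors deposited a MAS5 signal intensity for each probe set, linear in scale, per the submitters' processing notes; the sources used here do not state the settings. The 2% trimmed mean was the same on all 12 arrays, so the authors' scaling was kept. Of 45101 probe sets 64 array controls were left out; of the 45037 tested, 34945 had 1 platform symbol, 932 several and 9160 none listed. Gene identifiers of 34741 were found in the RefSeq table. Log2(signal + 16) was fitted with limma 3.58.1 in R 4.3.3 (eBayes with intensity trend, 6 against 6 arrays, Benjamini-Hochberg over all probe sets, two-sided). The fit was tested on simulated data. Pairs of genes were compared by exact permutation in Python 3.11.15.

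The 9 genes, the 23 related and marker lists and the tests were chosen with earlier results of these data known. Named genes are all 9, the other family members, up to 4 genes per list with the smallest adjusted p, and some further list members. The further ones were chosen after their values were seen. For likeness up to 3 genes with the highest r are named for each of the 9. Alternatives were offsets of 1 and 64, quantile normalization, median centring, dropping dim probe sets, eBayes without the trend, array weights, the replicate block, other probe sets per gene, leaving out arrays, and Eif2s3y as a filter or covariate.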

Additional observations from a re-analysis of the deposited data

How the results depend on the processing

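Across 25 alternatives for each of the 9 genes, 208 of 225 differences kept their direction and side of the threshold. Ogn, Prelp, Aspn and Podn did so under all 25, and the Ogn difference ran from -5.43 to -3.70. The number of the 9 genes lower in tumours was 4 to 7 when 1 array was left out, the 7 being reached without tumour 6, and that of genes higher was 0 throughout these; 1 gene, Fmod, was higher with array weights and 1 after median centring. Median centring and quantile normalization moved the median over all probe sets from -0.06 to 0.13 and 0.05, and the share of calls that were higher from 41.9% to 61.9% and 50.6%. Against the 6 normal lungs, using only the 2 tumours with low Eif2s3y turned the sign of Bgn (0.032), Lum (0.22) and Omd (0.12), and Eif2s3y as a covariate that of Lum (0.11); none of these passed before or after, and the cause was not tested. The main fit did not pair samples by the numbers in the titles. Deviations of same-numbered samples correlated at -0.02 to 0.02, which cannot show whether they share an animal, because tumours vary for other reasons too. With the replicate block 5 genes were lower, Omd (adjusted p = 0.0440) being the added call. Unequal pairs numbered 18 to 25 with 1 array left out, against 21. No group of 6 arrays held a value far enough from the others to be marked as an outlier in the 9 genes. Dim signals, as of Omd in tumours 1 to 5, limit precision.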
